A study of Mus musculus with 18 samples.

Results

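Genes of collagen hydroxylation and cross-linking were read from the table of mouse acute myocardial infarction (AMI) hearts, in all 10 of its 24419 gene symbols. They were taken by symbol, as the lysyl oxidases Lox, Loxl1, Loxl2, Loxl3 and Loxl4, the prolyl 4-hydroxylase alpha subunits P4ha1, P4ha2 and P4ha3, and the lysyl hydroxylases Plod1 and Plod2. Left ventricle of 18 male C57BL/6 mice aged 8 weeks was sequenced as polyA RNA, with 3 mice in each of 6 groups. The AMI groups were taken 10 min, 1 h, 6 h, 24 h and 72 h after the proximal left anterior descending coronary artery had been tied under pentobarbital, and the sampled tissue was the infarcted myocardium. The group labelled control, called sham in the study, was the reference, and no group carried a transgene or a drug treatment. Values are FPKM, fragments scaled to transcript length and to the mapped total of the library, so that levels can be set side by side between genes.

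Collagen chains are modified before they leave the cell. Prolyl 4-hydroxylase, built of an alpha subunit that carries the active site and the beta subunit P4hb, hydroxylates prolines and so keeps the triple helix stable at body temperature. Lysyl hydroxylases prepare lysines for sugar attachment and for cross-links. Outside the cell, lysyl oxidases are copper enzymes that turn lysine side chains of collagen and elastin into aldehydes, from which cross-links form and the scar gains strength.

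The 10 genes lie on 9 chromosomes in the GENCODE M21 annotation of GRCm38 (mm10). P4ha1 is at chr10:59323296-59373304, P4ha2 at chr11:54100095-54131665 and P4ha3 at chr7:100285520-100319699, all on the plus strand. Plod1 is at chr4:147909753-147936767 on the minus strand and Plod2 at chr9:92542223-92608428 on the plus strand, while Loxl1 shares chromosome 9 at chr9:58287738-58313186 on the minus strand. Loxl2 is at chr14:69609068-69695834 and Loxl3 at chr6:83034173-83052562 on the plus strand, Loxl4 at chr19:42593982-42612813 on the minus strand, and Lox is on chromosome 18. Exons of Loxl3 overlap those of the antisense gene Htra2 over 535 bases, those of Plod2 overlap Gm38391 over 346 bases and those of Loxl2 overlap Gm27177 over 301 bases. The library kit is not stated to keep strand, so reads there cannot be told apart. Htra2 itself was at 11.3 ± 0.43 FPKM in sham and 17.3 ± 0.27 FPKM at 72 h (SD, n = 3).

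All 10 members passed the filter of at least 1 FPKM in at least 1 of the 18 mice, which left 13333 symbols. A gene was said to have risen or fallen where limma on log2(FPKM + 1), fitted on the 6 mice compared, gave a Benjamini-Hochberg adjusted p under 0.05 over all genes tested. Fold changes are log2 differences on that scale, with the SE, and understate the change of genes near or below 1 FPKM. The number of reads was not given. Judged from the steps between low values, sequencing depth relative to the first sham mouse ran from 0.818 to 1.31, and the 72 h mice were at 1.24 to 1.31. Cardiomyocyte markers summed to 55765 to 59296 FPKM in sham, as the label of heart requires, and to 20429 to 25375 FPKM at 72 h.

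At 10 min and 1 h after ligation, limma called 0 of the 10 members, against 0.346% of all genes tested at 10 min and 0.722% at 1 h. At an unadjusted p under 0.05, 1 member passed at 10 min, against 14.7% of all genes, and 0 at 1 h, against 12.6%. The single one was Loxl1, with 16.0, 13.5 and 17.6 FPKM in sham and 19.5, 21.6 and 20.4 FPKM at 10 min (log2 fold change 0.37, SE 0.10, limma adjusted p = 0.169).

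At 6 h Lox and Loxl4 rose, and P4ha2 and Plod1 fell, so that 2 members were higher and 2 lower, against 11.6% and 16.8% of all genes tested. These shares are near those of all genes, and the call of Lox alone held under every alternative. The other 6 members did not pass. By 24 h, 8 members had risen and 0 had fallen, against 26.2% and 11.4% of all genes, and by 72 h 9 had risen and 0 had fallen, against 53.1% and 24.2%. The median log2 fold change over the 10 members was 0.10 at 6 h, then 0.75 at 24 h, then 2.24 at 72 h. Over all genes tested it was -0.08, 0.13 and 0.29.

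The all-gene background moved with the scaling of the libraries. At 72 h, 7081 genes were higher and 3226 lower in the FPKM as deposited, 5208 and 4792 after median-of-ratios scaling, and 4278 and 5794 after quantile normalization, with all-gene medians of 0.29, 0.03 and -0.12. At 24 h the counts were 3496 and 1516, then 2460 and 2426, then 2117 and 2738, with medians of 0.13, 0.01 and -0.06. At 6 h they were 1543 and 2233, then 1922 and 1586, then 1652 and 2150. The members called at 72 h were 9, 8 and 9 under the 3 scalings, at 24 h 8, 7 and 6, and at 6 h 2 higher and 2 lower, then 3 higher and 0 lower, then 3 higher and 2 lower.

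**Figure D1:**
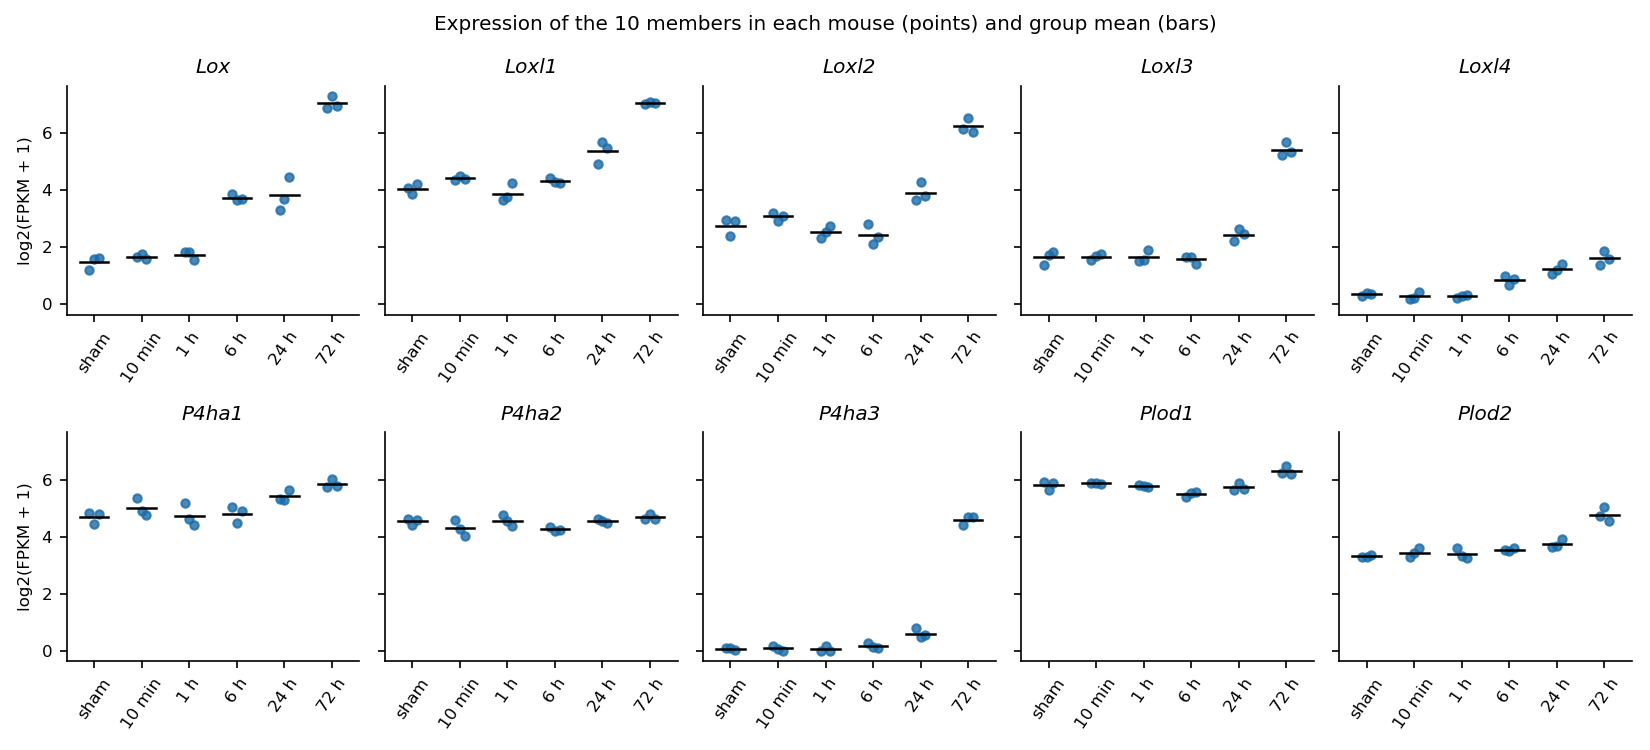
Expression of the 10 members as log2(FPKM + 1) on a shared vertical axis, with 1 point for each mouse and a bar for the group mean of 3 mice. Lox steps up at 6 h and again at 72 h, P4ha3 lies near 0 until 72 h, and P4ha2 lies between 15.5 and 26.6 FPKM in all 18 mice.

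Lox, the founding lysyl oxidase, rose in 2 steps. It was at 1.28, 2.02 and 2.08 FPKM in the sham mice, at 2.19, 2.36 and 2.01 FPKM at 10 min and at 2.60, 2.54 and 1.92 FPKM at 1 h. At 6 h the mice had 13.8, 11.5 and 12.0 FPKM, at 24 h 8.998, 11.9 and 21.4 FPKM, and at 72 h 118, 157 and 124 FPKM. The 6 h values lay above every earlier one, the 24 h values surrounded them, and the 72 h values stood clear of all others.

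Relative to sham, Lox rose by a log2 fold change of 2.28 at 6 h (SE 0.14, limma adjusted p = 0.000269), 2.36 at 24 h (SE 0.29, adjusted p = 0.00387) and 5.59 at 72 h (SE 0.14, adjusted p = 1.77e-08). From 1 h to 6 h it rose by 2.01 (SE 0.13, limma adjusted p = 0.00053). Between 6 h and 24 h the difference was 0.09 (SE 0.28, limma adjusted p = 0.834), and most of the gain fell between 24 h and 72 h, at 3.22 (SE 0.28, adjusted p = 0.000177). Lox was called at 6 h, 24 h and 72 h against sham under every alternative run.

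Loxl4, a family member of low level in these hearts, also rose at 6 h. It went from 0.21, 0.33 and 0.28 FPKM in sham to 1.00, 0.61 and 0.87 FPKM at 6 h (a log2 change of 0.52, SE 0.10, limma adjusted p = 0.0116). It then stood at 1.10, 1.28 and 1.66 FPKM at 24 h and at 1.63, 2.70 and 2.03 FPKM at 72 h. The ranges of sham and 6 h did not overlap, and those of 24 h and 72 h overlapped. Its 72 h change against sham was 1.28 (SE 0.13, limma adjusted p = 2.48e-05), the smallest of the 5 lysyl oxidases on this scale, and its change from 24 h to 72 h did not pass (0.40, SE 0.16, adjusted p = 0.078). Without the first sham mouse the 6 h call of Loxl4 missed the threshold (adjusted p = 0.0524).

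Loxl1, the lysyl oxidase tied to elastic fibre upkeep, was the most abundant of the family in sham. It was at 18.2 to 20.5 FPKM at 6 h, which did not pass against sham (log2 fold change 0.27, SE 0.11, limma adjusted p = 0.105). At 24 h the mice had 29.4, 51.4 and 43.5 FPKM and at 72 h 131, 137 and 132 FPKM, each group above the one before it. The log2 fold change against sham was 1.32 at 24 h (SE 0.20, limma adjusted p = 0.00636) and 3.01 at 72 h (SE 0.09, adjusted p = 3.33e-08).

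Loxl2 and Loxl3, which carry scavenger receptor domains before the oxidase domain, moved late. Loxl2 was at 6.71, 4.29 and 6.68 FPKM in sham, at 5.99, 3.37 and 4.19 FPKM at 6 h, at 11.7, 18.6 and 12.9 FPKM at 24 h and at 70.0, 92.7 and 65.2 FPKM at 72 h. Loxl3 was at 1.62, 2.36 and 2.60 FPKM in sham, at 2.19, 2.17 and 1.68 FPKM at 6 h, at 3.65, 5.20 and 4.55 FPKM at 24 h and at 36.9, 50.4 and 39.8 FPKM at 72 h. In both genes sham and 6 h overlapped, while the 24 h mice lay above all sham mice and the 72 h mice above all of them.

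Loxl2 changed against sham by 1.15 at 24 h (SE 0.21, limma adjusted p = 0.00949) and by 3.49 at 72 h (SE 0.17, adjusted p = 3.75e-07). Loxl3 changed by 0.78 (SE 0.16, limma adjusted p = 0.0137) and 3.76 (SE 0.15, adjusted p = 1.02e-07). Loxl1, Loxl2 and Loxl3 were the 3 members higher at 24 h than at 6 h, against 12.5% of all genes, and 0 members were lower, against 1.94%. That count fell to 0 without the second 24 h mouse, without the second or the third 6 h mouse, and to 1 without the first 6 h mouse.

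Within the lysyl oxidases the makeup changed. In sham, Loxl1 held 60.7% ± 1.09 of the summed FPKM of the 5 genes (SD, n = 3), Loxl2 22.6% ± 3.44, Loxl3 8.56% ± 2.12, Lox 7.01% ± 2.02 and Loxl4 1.08% ± 0.33. At 6 h Lox held 32.0% ± 0.44 and Loxl1 49.2% ± 2.04. At 24 h Lox was back at 18.5% ± 6.27, with 16.4%, 13.5% and 25.5% in the 3 mice, and at 72 h Lox held 34.3% ± 1.31 and Loxl1 34.7% ± 3.10. The Lox share did not overlap sham at 6 h, 24 h or 72 h (two-sided exact permutation p = 0.1 each, the smallest that 3 against 3 mice can give).

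**Figure D2:**
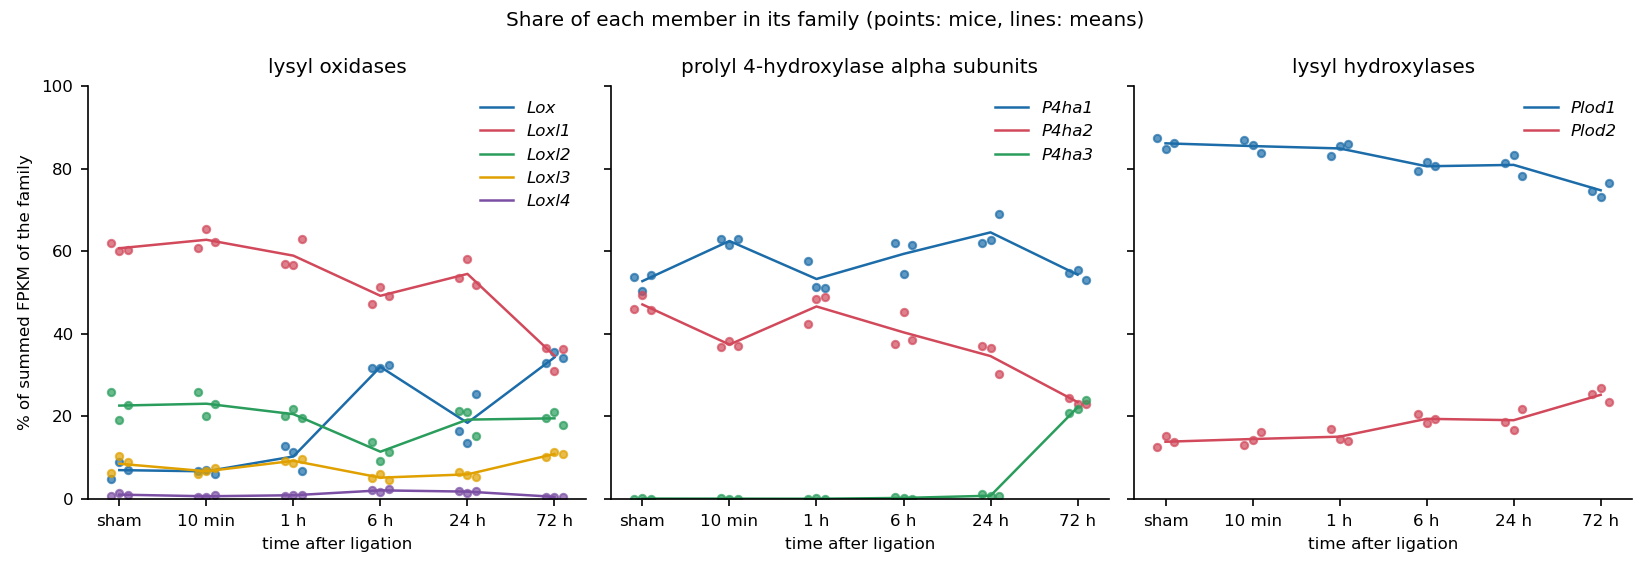
Share of each member in the summed FPKM of its family, in percent, with points for mice and lines through group means. The Lox share is 7.01% in sham, 32.0% at 6 h and 34.3% at 72 h, and the P4ha3 share rises from 0.12% to 22.2%. The lysyl hydroxylases are here Plod1 and Plod2, without Plod3.

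The 3 prolyl 4-hydroxylase alpha subunits took separate courses. P4ha1, the main alpha subunit of most tissues, was at 27.4, 21.0 and 27.2 FPKM in sham and 31.7, 21.3 and 29.0 FPKM at 6 h, which overlapped. It was at 39.4, 38.6 and 48.6 FPKM at 24 h and at 53.1, 64.2 and 54.5 FPKM at 72 h, each group above all sham mice. The log2 fold change was 0.73 at 24 h (SE 0.14, limma adjusted p = 0.0107) and 1.16 at 72 h (SE 0.12, adjusted p = 2.45e-05). The step from 24 h to 72 h was 0.43 (SE 0.13, limma adjusted p = 0.0302) and missed the threshold in 8 of the alternatives, at adjusted p from 0.0513 to 0.105.

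P4ha2, the second alpha subunit, had the smallest 72 h change of the 10 members. It was at 23.5, 20.6 and 23.0 FPKM in sham, at 23.3, 18.2 and 15.5 FPKM at 10 min and at 26.0, 22.5 and 19.7 FPKM at 1 h. It was then at 19.2, 17.7 and 18.1 FPKM at 6 h, at 23.5, 22.5 and 21.3 FPKM at 24 h and at 23.8, 26.6 and 23.7 FPKM at 72 h. The lowest value of the series was in a 10 min mouse, where the group overlapped sham, and the 6 h mice lay below all sham mice (log2 fold change -0.27, SE 0.08, limma adjusted p = 0.0484). That call was lost in 11 alternatives, at adjusted p from 0.0514 to 0.178, median-of-ratios scaling among them. At 72 h all 3 mice were above the sham mice in the FPKM as deposited, but the difference did not pass (0.14, SE 0.08, limma adjusted p = 0.137). That made P4ha2 the one member not called there. Levels of P4ha2 at 72 h depended on the scaling: its change from 6 h to 72 h was 0.41 as deposited and 0.02 after median-of-ratios scaling.

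P4ha3, the alpha subunit known last, was nearly absent until 72 h. It was at 0.07, 0.07 and 0.03 FPKM in sham, was listed at 0 in 1 mouse at 10 min and in 2 mice at 1 h, and was at 0.22, 0.10 and 0.06 FPKM at 6 h. At 24 h the mice had 0.72, 0.39 and 0.47 FPKM, and at 72 h 20.3, 25.2 and 24.8 FPKM, level with P4ha2. The 24 h change was 0.53 (SE 0.11, limma adjusted p = 0.0137) and that at 72 h 4.52 (SE 0.10, adjusted p = 1.11e-08). Leaving out any 1 of the 3 sham mice lost the 24 h call (adjusted p from 0.053 to 0.0563).

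With these courses the summed FPKM of the alpha subunits, held almost wholly by P4ha1 and P4ha2 up to 24 h, was spread over all 3 genes at 72 h. P4ha2 held 47.1% ± 2.03 in sham (SD, n = 3), 40.4% ± 4.21 at 6 h, then 34.6% ± 3.74 at 24 h and lastly 23.5% ± 0.89 at 72 h. P4ha3 held 0.12% ± 0.06 in sham, 0.81% ± 0.28 at 24 h and 22.2% ± 1.67 at 72 h. P4ha1 held 52.8% ± 2.07 in sham and 54.3% ± 1.24 at 72 h, which overlapped. In between, P4ha1 held 62.5% ± 0.82 at 10 min, 53.3% ± 3.67 at 1 h, 59.4% ± 4.18 at 6 h and 64.6% ± 3.88 at 24 h. Its 10 min, 6 h and 24 h shares lay above every sham mouse (two-sided exact permutation p = 0.1 each). The P4ha2 share lay below every sham mouse at 6 h, 24 h and 72 h (two-sided exact permutation p = 0.1 each). Already at 10 min it was 37.4% ± 0.82, again below every sham mouse (two-sided exact permutation p = 0.1), while at 1 h it was 46.6% ± 3.60 and overlapped sham.

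Promoter sequence of RefSeq (GRCm38.p6) was at hand for 5 of the 10 members, and the alpha subunits are shown because they share a function and part in level. Each run gives the 250 bases before the start, 5′ to 3′ on the gene's plus strand, and capitals mark the core of the hypoxia response element, ACGTG or GCGTG, on either strand.
P4ha1, chr10:59323046-59323295: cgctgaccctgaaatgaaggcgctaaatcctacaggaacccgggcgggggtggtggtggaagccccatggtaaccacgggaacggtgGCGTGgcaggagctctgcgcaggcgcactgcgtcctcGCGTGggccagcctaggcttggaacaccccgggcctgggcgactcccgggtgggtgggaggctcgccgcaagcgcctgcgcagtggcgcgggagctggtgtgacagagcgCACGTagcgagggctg
P4ha2, chr11:54100674-54100923: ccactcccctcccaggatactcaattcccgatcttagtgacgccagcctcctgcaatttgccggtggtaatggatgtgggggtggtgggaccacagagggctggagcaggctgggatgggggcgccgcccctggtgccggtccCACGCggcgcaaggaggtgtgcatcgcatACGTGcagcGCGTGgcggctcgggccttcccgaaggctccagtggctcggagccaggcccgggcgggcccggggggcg
P4ha3, chr7:100285270-100285519: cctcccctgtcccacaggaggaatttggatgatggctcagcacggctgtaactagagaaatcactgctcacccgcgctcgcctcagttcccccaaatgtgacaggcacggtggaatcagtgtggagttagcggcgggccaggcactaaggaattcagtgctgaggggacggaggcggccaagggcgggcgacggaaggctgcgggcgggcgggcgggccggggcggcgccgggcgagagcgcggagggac

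The P4ha1 window held 3 such cores, at 163, 126 and 16 bases before the start, and the P4ha2 window held 3, at 107, 78 and 69 bases. The P4ha3 window held 0 of them. The GC box GGGCGG, counted on either strand, had 1 match in the P4ha1 window, 2 in that of P4ha2 and 5 in that of P4ha3. In P4ha3 the match at 44 bases before the start overlaps those at 48 and 40, so the 5 are not separate copies. Of 32851 promoter windows of the same length, 38.6% held at least 1 of the hypoxia cores and 32.7% a GC box. A match of letters is a description of the window, and binding was not measured here. The P4ha2 window lies inside the annotated gene, downstream of the start of a longer transcript, and holds 0 exon bases.

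Hypoxia-induced genes were followed as a list of 15. Of these 6 rose and 0 fell at 6 h, against 11.6% and 16.8% of all genes tested. At 24 h 5 rose and 1 fell, against 26.2% and 11.4%, and at 72 h 5 rose and 6 fell, against 53.1% and 24.2%. The median log2 fold changes of the list were 0.21, 0.55 and 0.01, and those of all genes tested -0.08, 0.13 and 0.29. Those that rose at 6 h were Slc2a1 (log2 fold change 2.35), Pfkfb3 (1.53), Ero1l (1.04), Adm (1.03), Ndrg1 (0.72) and Bnip3 (0.66). Ldha, lactate dehydrogenase A and the most abundant of the list, was at 1105 FPKM in sham and 1659.6 FPKM at 24 h (a log2 change of 0.58, SE 0.11, limma adjusted p = 0.00953). Its 6 h difference of 0.21 did not pass (limma adjusted p = 0.0535). Pdk1, a kinase that holds back pyruvate entry into mitochondria, fell at 72 h by 0.85 on the log2 scale (SE 0.06, limma adjusted p = 2.23e-06). Of the members, Lox and Loxl4 rose at 6 h, and P4ha2 and Plod1 fell. P4ha1 and Plod2 did not pass at 6 h in the FPKM as deposited, and both had risen at 24 h and 72 h. A link between this list and the members was not tested.

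Plod1, a lysyl hydroxylase of the collagen helix, was the most abundant member up to 24 h. It had 60.0, 49.7 and 58.3 FPKM in sham, 41.3, 45.5 and 46.4 FPKM at 6 h, 49.6, 58.3 and 50.1 FPKM at 24 h and 74.3, 88.6 and 72.9 FPKM at 72 h. The 6 h mice lay below and the 72 h mice above every sham mouse, and the 24 h mice overlapped sham. The log2 fold change was -0.32 at 6 h (SE 0.09, limma adjusted p = 0.0405) and 0.48 at 72 h (SE 0.10, adjusted p = 0.00213).

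Neither call of Plod1 held under every alternative. The 6 h call was lost in 8 of them, at adjusted p from 0.0513 to 0.15, and the 72 h call in 1. After median-of-ratios scaling the 6 h change was -0.24 (limma adjusted p = 0.0959) and the 72 h change 0.17 (adjusted p = 0.139). Plod1 was also the member lower at 6 h than at 1 h (-0.29, SE 0.08, limma adjusted p = 0.0396), where Lox and Loxl4 were the 2 higher, against 11.2% of all genes lower and 9.32% higher. This lower call was lost in 8 alternatives, at adjusted p from 0.0541 to 0.133.

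Plod2, the lysyl hydroxylase of the telopeptides whose product gives the more stable cross-links, rose at 24 h and 72 h. It was at 8.69, 8.89 and 9.34 FPKM in sham, at 10.7, 10.2 and 11.2 FPKM at 6 h, at 11.4, 11.7 and 14.0 FPKM at 24 h and at 25.4, 32.4 and 22.3 FPKM at 72 h. All mice of the 3 late groups lay above all sham mice. The 6 h difference did not pass in the deposited FPKM (0.23, SE 0.08, limma adjusted p = 0.0757) but did after median-of-ratios scaling (0.31, adjusted p = 0.0221) and quantile normalization (0.25, adjusted p = 0.0429). It rose by 0.42 at 24 h (SE 0.10, limma adjusted p = 0.0218) and by 1.46 at 72 h (SE 0.12, adjusted p = 7.9e-06). The 24 h call was lost without any 1 of the sham mice, at adjusted p from 0.0657 to 0.0867, and under both other scalings.

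The share of Plod2 in the summed FPKM of Plod1 and Plod2 was 13.9% ± 1.27 in sham (SD, n = 3). It was 19.4% ± 1.07 at 6 h, then 19.1% ± 2.62 at 24 h, then 25.2% ± 1.68 at 72 h. It lay above every sham mouse in these 3 groups (two-sided exact permutation p = 0.1 each). Plod3, the third gene of the family and a member of the list of collagen folding genes, was more abundant than both, at 69.4 ± 1.01 FPKM in sham. It rose at 6 h to 96.4 ± 6.98 FPKM (log2 fold change 0.46, SE 0.08, limma adjusted p = 0.00587), when Plod1 was lower, and reached 242 ± 34.0 FPKM at 72 h (1.78, SE 0.10, adjusted p = 6.54e-07). The log2 fold changes of Plod3 at 6 h, 24 h and 72 h, 0.46, 1.04 and 1.78, were above the 0.23, 0.42 and 1.46 of Plod2. The rise of the Plod2 share is therefore against Plod1 alone, and a share that includes Plod3 was not computed.

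**Figure D3:**
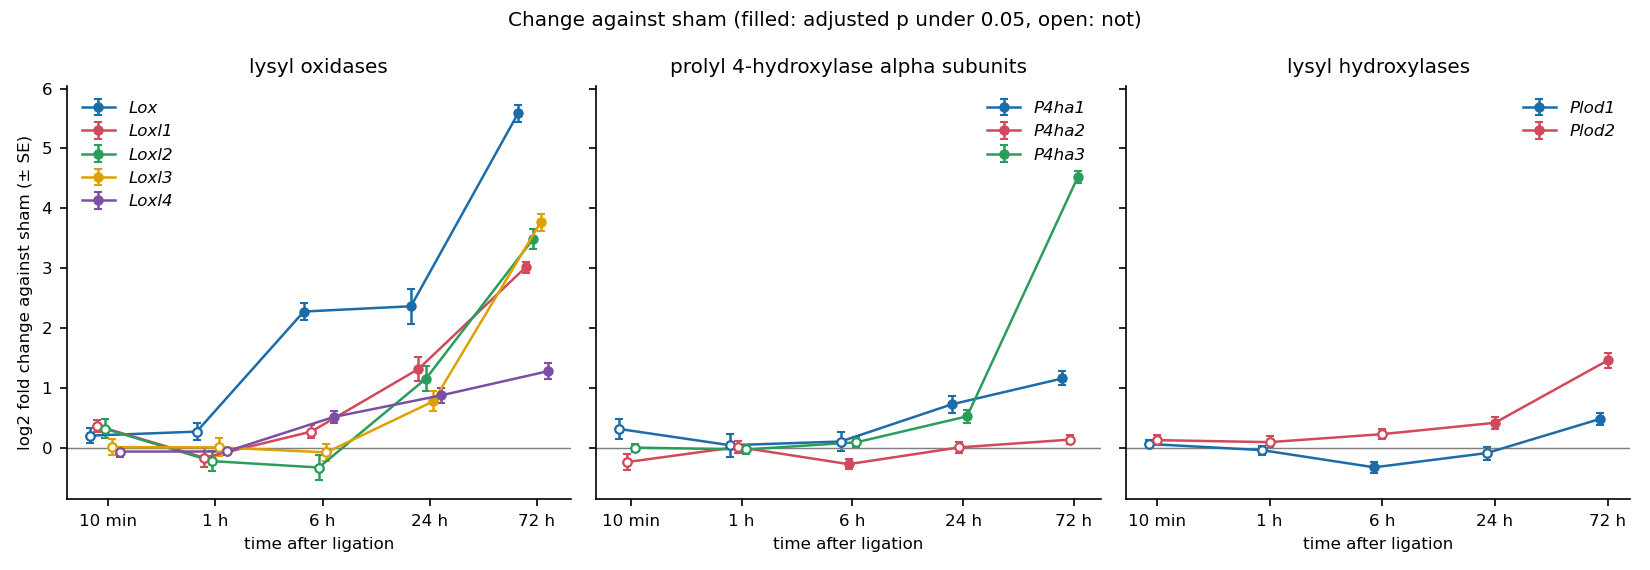
Log2 fold change of each member against sham on the log2(FPKM + 1) scale at 5 times after ligation, with bars of 1 SE and 3 mice per group; filled points passed an adjusted p under 0.05 and open points did not. Lox departs from the other lysyl oxidases at 6 h, P4ha3 rises by 4.52 at 72 h, and P4ha2 ends at 0.14.

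In the FPKM as deposited, every 72 h mouse lay above every sham mouse for 10 of 10 members, against 55.1% of all genes tested. The same count was not made under the other scalings. Fewer genes were called higher at 72 h there, 5208 under median-of-ratios scaling and 4278 under quantile normalization, against 7081.

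The order of levels turned over. In sham it ran from Plod1 (56.0 FPKM) through P4ha1, P4ha2, Loxl1, Plod2, Loxl2, Loxl3, Lox and Loxl4 to P4ha3 (0.06 FPKM), and neighbours overlapped only for P4ha1 with P4ha2 and for Loxl3 with Lox. At 72 h it ran from Loxl1 and Lox (133 FPKM each) through Plod1, Loxl2, P4ha1, Loxl3, Plod2, P4ha2 and P4ha3 to Loxl4 (2.12 FPKM). There Loxl1 overlapped Lox, Plod1 overlapped Loxl2, and Plod2, P4ha2 and P4ha3 overlapped as neighbours. From 24 h to 72 h, 8 members rose and 0 fell, against 29.7% and 13.5% of all genes, with Loxl4 and P4ha2 the exceptions. From 6 h to 72 h all 10 rose and 0 fell, against 50.3% and 16.7%, but P4ha2 lost that call under median-of-ratios scaling (adjusted p = 0.879) and quantile normalization (adjusted p = 0.463), and Loxl4 under quantile normalization (adjusted p = 0.245).

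Enzyme levels were also set against those of their substrates. The summed FPKM of the fibrillar collagen chains Col1a1, Col1a2 and Col3a1 was 74.4 ± 13.9 in sham (SD, n = 3), 104 ± 5.64 at 10 min and 70.0 ± 8.22 at 1 h. It was 44.1 ± 8.47 at 6 h, then 164 ± 56.7 at 24 h and lastly 3204 ± 579.5 at 72 h. At 6 h each of the 3 chains had fallen, Col1a1 by 0.60 on the log2 scale (limma adjusted p = 0.0386), Col1a2 by 0.66 (adjusted p = 0.0202) and Col3a1 by 0.88 (adjusted p = 0.0224).

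The lysyl oxidases came to 35.0% ± 2.09 of that collagen sum in sham, 89.8% ± 14.1 at 6 h, 47.8% ± 12.4 at 24 h and 12.2% ± 0.93 at 72 h. The alpha subunits came to 64.8% ± 8.06, 105% ± 7.73, 42.9% ± 14.0 and 3.32% ± 0.29. Plod1 and Plod2 together came to 88.7% ± 11.6, 129% ± 30.0, 41.9% ± 9.85 and 3.31% ± 0.32. Plod3, at 69.4 FPKM in sham and 242 FPKM at 72 h, was not part of that ratio, which thus understates the lysyl hydroxylases as a whole. At 6 h the summed FPKM of the lysyl oxidases was 38.9 ± 3.99, against 25.8 ± 3.38 in sham. That of the alpha subunits was 45.8 ± 6.14 against 47.6 ± 5.20, and that of Plod1 and Plod2 was 55.1 ± 2.83 against 65.0 ± 5.58. The mean hydroxylase sums were thus below sham at 6 h, when the collagen sum was lower as well. At 72 h the sums were 387 ± 45.4, 105 ± 9.61 and 105 ± 13.7 FPKM. All 3 ratios lay above every sham mouse at 6 h and below every sham mouse at 72 h. At 24 h the lysyl oxidase ratio was above sham and the other ratios below it (two-sided exact permutation p = 0.1 for each of the 9 comparisons). The 24 h ratios rested in part on single mice: the log2 difference of the lysyl oxidases from sham was 0.42, and 0.22 without the third 24 h mouse, and that of the alpha subunits was -0.65, and -0.34 without the second 24 h mouse. As log2 differences from sham the 72 h ratios were -1.53, -4.28 and -4.74. The lysyl oxidase ratio was 31.4% ± 2.07 at 10 min and 33.8% ± 3.61 at 1 h, and the alpha subunit ratio 49.0% ± 10.9 and 72.3% ± 25.2. At 10 min the ratio of Plod1 and Plod2 was 65.8% ± 3.82, below every sham mouse (two-sided exact permutation p = 0.1), with a collagen sum above every sham mouse. At 1 h that ratio was 92.8% ± 15.9. All 3 ratios overlapped sham then, and the first 1 h mouse, at 101% for the alpha subunits and 111% for Plod1 and Plod2, lay within the 6 h ranges. These ratios are taken within a mouse and do not depend on a scaling factor of its library.

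**Figure D4:**
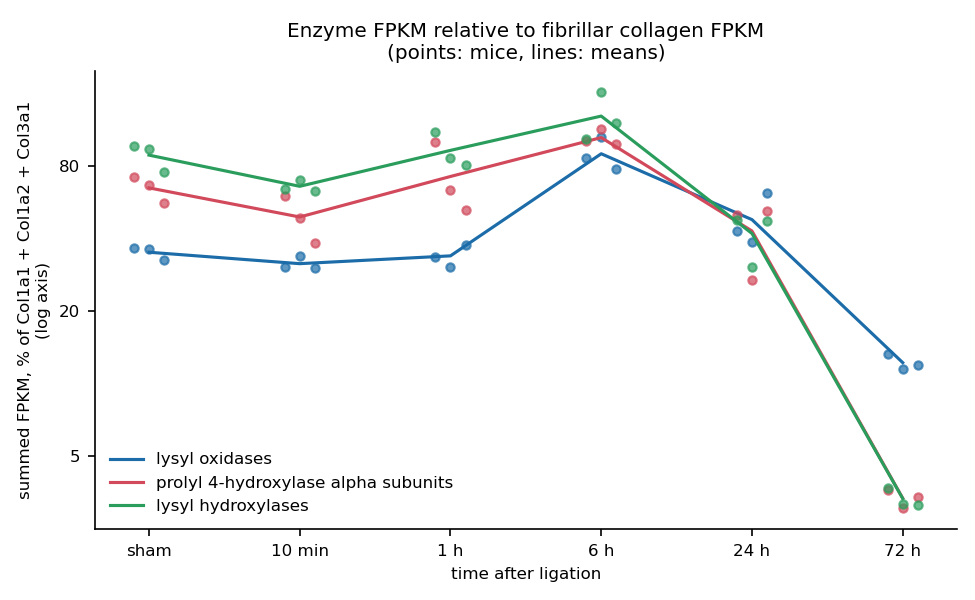
Summed FPKM of each enzyme family as a percentage of the summed FPKM of Col1a1, Col1a2 and Col3a1, on a log axis, with points for mice and lines through group means. The lysyl oxidases go from 35.0% in sham to 89.8% at 6 h and 12.2% at 72 h, and the hydroxylase families end near 3.3%. The lysyl hydroxylases are here Plod1 and Plod2, without the more abundant Plod3 (242 FPKM at 72 h), so their full level is understated.

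The rest of the collagen pathway was followed by lists. Of 7 fibrillar collagen chains tested, 0 rose and 4 fell at 6 h, 5 rose and 0 fell at 24 h, and 7 rose at 72 h with a median log2 fold change of 4.53. Of 14 genes of collagen folding and modification, 1 rose and 1 fell at 6 h, 9 rose and 1 fell at 24 h and 13 rose and 1 fell at 72 h (median 1.63). P4hb, the beta subunit that partners the alpha subunits, was at 85.1 FPKM in sham and 189.97 ± 47.2 FPKM at 24 h (1.12, SE 0.16, limma adjusted p = 0.0055), and Serpinh1, the collagen chaperone, did not pass until 72 h (1.48, SE 0.15, adjusted p = 2.39e-05). Of 6 procollagen proteinase and enhancer genes tested, 0 rose and 1 fell at 6 h, 2 rose and 1 fell at 24 h and 5 rose and 0 fell at 72 h. Bmp1, the proteinase that also cleaves the Lox proenzyme, rose at 72 h by 2.39 (SE 0.09, limma adjusted p = 9.46e-08).

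Elastic fibre genes carry the other substrate of the lysyl oxidases. Of 12 of them, 3 rose and 1 fell at 6 h, against 11.6% and 16.8% of all genes tested. At 24 h 5 rose and 4 fell, against 26.2% and 11.4%, and at 72 h 11 rose and 1 fell, against 53.1% and 24.2%. Those that rose at 6 h, at the time of the first Lox step, were Eln, the gene of elastin, from 17.4 ± 1.77 to 29.8 ± 2.29 FPKM (log2 fold change 0.75, SE 0.10, limma adjusted p = 0.00318), and the microfibril-associated Mfap5 and Emilin1. Ltbp4 was the one that fell (-0.50, SE 0.09, limma adjusted p = 0.00889). Eln did not pass at 24 h (0.29, SE 0.12, limma adjusted p = 0.0949) and rose at 72 h to 102 ± 14.0 FPKM (2.48, SE 0.11, adjusted p = 2.06e-07).

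Markers of other cells moved over the same hours. The shares of all genes tested, for the counts here and in the next paragraphs, were 11.6% risen and 16.8% fallen at 6 h. They were 26.2% and 11.4% at 24 h, and 53.1% and 24.2% at 72 h. In whole tissue, more cells of a type and more RNA per cell cannot be told apart. Cardiomyocyte markers fell in 2, 5 and 8 of 8 genes at 6 h, 24 h and 72 h, and leukocyte markers rose in 3, 8 and 8 of 8. The leukocyte marker Csf1r, the receptor of macrophage growth factor, fell at 6 h (-0.46, SE 0.12, limma adjusted p = 0.0247). The summed leukocyte markers ran from 193 to 218 FPKM in sham, 159.6 to 356 FPKM at 6 h, 518 to 877 FPKM at 24 h and 3499.8 to 4606 FPKM at 72 h. Of 8 fibroblast markers, 1 rose and 2 fell at 6 h, near the shares of all genes. At 24 h 3 of them rose and 3 fell, and at 72 h 7 rose and 1 fell. Their sum was 606 to 697 FPKM in sham, 530 to 657 FPKM at 6 h, 415 to 491 FPKM at 24 h and 1222 to 1403 FPKM at 72 h.

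Of 6 myofibroblast markers, 1 rose (Tnc, the matrix protein tenascin C, at 0.21 FPKM in sham and 10.9 ± 9.81 FPKM at 6 h) and 1 fell at 6 h, 3 rose and 1 fell at 24 h and all 6 rose at 72 h (median log2 fold change 4.28). Their sum was 64.0 to 97.9 FPKM in sham, 57.2 to 90.6 FPKM at 6 h, 116 to 168 FPKM at 24 h and 1021 to 1184 FPKM at 72 h. These sums are led by few genes, in sham by Acta2 in the myofibroblast list (71.3 FPKM) and Gsn in the fibroblast list (263 FPKM). At 72 h the myofibroblast sum was led by Postn (663 ± 18.0 FPKM), with Acta2 at 232 ± 35.4 FPKM. The fibroblast sum was then led by Dpt (501 ± 64.4 FPKM), with Gsn at 112 ± 36.2 FPKM. Lum, Col15a1 and Fap were those that fell at 6 h.

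Smooth muscle and pericyte markers fell in 4 of 6 genes at 6 h (Myh11, Smtn, Mylk and Kcnj8), and their sum, 153 to 175 FPKM, lay below the 204 to 224 FPKM of sham. They fell in 4 of 6 at 24 h, and 1 rose and 3 fell at 72 h. Of 6 endothelial markers, Pecam1 rose and Kdr and Emcn fell at 6 h, and 3 fell at 24 h and at 72 h. Erythroid markers fell in 2 of 5 genes at 72 h, when 24.2% of all genes fell, and in 0 at 6 h and 24 h. At least 1 mouse had a value above 0 for every marker in all groups, Mfap5 stands on both the fibroblast and the elastic fibre list, and the part of these cells in the members' changes was not tested.

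Within 2 groups a single mouse held the highest values of most members. The second 72 h mouse had the highest FPKM of its group for 10 of 10 members, against 41.2% of all genes tested. It also had the highest collagen sum, 3842 FPKM against 2710 and 3061, and the highest myofibroblast sum, while its fibroblast sum was the lowest. At 6 h the first mouse was highest for 8 of 10 members, against 32.6% of all genes tested. Leaving out any 1 mouse left 9 members called at 72 h.

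Across the 18 mice the 45 pairs of members had Pearson r from 0.30 (Loxl4 with P4ha2) to 0.99 (Loxl3 with P4ha3), with a median of 0.82, on log2(FPKM + 1). The mice fall into 6 groups of which the 72 h group stands apart, so r mostly describes the group means. P4ha2 was the least tied, with a median r of 0.47 to the other 9. The genes closest to P4ha3 among all tested were Hmmr, Cthrc1 and Ctsb, each with r of 0.995 to 0.997 over 18 mice. Of these, only Cthrc1, a secreted protein of activated fibroblasts, stands on a marker list used here. Like P4ha3, Cthrc1 was near 0 in sham, and it was at 30.0 ± 2.41 FPKM at 72 h. Which cells hold P4ha3 was not tested. Those closest to Loxl2 were Col5a2, Fstl1 and Bgn (r = 0.989 to 0.990), to Loxl3 Cd180, Cdca7l and Gpnmb (r = 0.994 to 0.997), and the closest to P4ha2, Xrcc6bp1, reached r = 0.80.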

How the data were processed

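PolyA RNA of heart tissue from 18 mice (6 groups of 3) was sequenced. The authors used cutadapt 1.18 for trimming, HISAT2 2.1.0 for alignment to mm10 and StringTie 1.3.4d for quantification, and deposited 1 table of FPKM by gene symbol. The annotation is not given in the sources used here. FPKM removes library depth and transcript length, so values are relative within a library, and read counts are unknown. Groups came from sample titles. All 18 columns were used, of which a few headers are misspelt versions of the titles. FPKM were used as deposited. Symbols with at least 1 FPKM in at least 1 mouse (13333 of 24419) were tested as log2(FPKM + 1) with limma 3.58.1 in R 4.3.3 (lmFit, then eBayes with a variance trend), each comparison on its own 6 mice, two-sided, with Benjamini-Hochberg correction across every symbol tested. The code was tested on simulated data. Family shares and ratios to collagen were compared by exact permutation tests. The named genes were the 10 members, up to 6 genes per list by mean FPKM and the hypoxia-induced genes that rose at 6 h. The 3 genes with the highest r were looked up for each member. They are named for P4ha3, Loxl2 and Loxl3, and the closest 1 for P4ha2. Members, lists and tests were chosen with earlier results of these data known. Alternatives were another pseudocount (0.1), 2 other filters, 2 other scalings, 1 fit over all mice, no variance trend, a replicate block and leaving out each mouse. Gene positions are from GENCODE M21 and promoters from RefSeq (GRCm38.p6). No library was identical to another.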

Additional observations from a re-analysis of the deposited data

Results flagged for a closer look

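Plod1 moved in opposite directions at 6 h and 72 h, and the difference itself was tested. The log2 fold change of 72 h minus 6 h was 0.81 (SE 0.11, limma adjusted p = 0.000273), from 44.4 ± 2.70 to 78.6 ± 8.66 FPKM (SD, n = 3), with 3 of 3 mice higher at 72 h than every 6 h mouse. Plod1 had fallen against sham at 6 h and risen at 72 h as fitted, but the 6 h call was lost in 8 alternatives (adjusted p from 0.0513 to 0.15), and the 72 h call was lost under median-of-ratios scaling (adjusted p = 0.139).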

How the results depend on the processing

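Of 45 calls of a member in a comparison, 28 were tested and held under all alternatives, 3 of Loxl4 held wherever it was tested but it was not tested under the filter on mean FPKM, and 0 changed sign. The 28 include 1 against sham at 6 h (Lox), 4 at 24 h and 7 at 72 h. The number of members called at 6 h against sham was 4, and 2 with no filter on low FPKM, with no variance trend or with the replicate block, and 1 to 3 without single mice (1 without the first sham mouse). At 24 h against sham it was 8, and 5 to 8 without single mice (5 without the first sham mouse, from which Loxl3, P4ha3 and Plod2 dropped out). At 24 h against 6 h it was 3, and 1 under quantile normalization, 7 with all 18 mice in one fit, 0 with the replicate block and 0 to 3 without single mice. The cause was not tested. The share of Plod2 in Plod1 and Plod2 rose by 11.4 percentage points at 72 h, and by 9.17 under quantile normalization. The 72 h log2 ratios to collagen moved from -1.53 to -1.82 (quantile normalization) and -1.95 (Col1a1 alone) for the lysyl oxidases, from -4.28 to -4.63 and -4.71 for the alpha subunits, and from -4.74 to -5.01 and -5.17 for Plod1 and Plod2.

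The replicate numbers were taken as names of the mice. Deviations of same-numbered mice correlated at -0.33 to 0.41, and in no comparison were all 3 above 0.1. Whether same-numbered mice were handled together is not known, and with 3 mice per group these values cannot settle it. Beyond the counts given, the block took 1 member each from the calls of 6 h against 1 h and 72 h against 24 h. Scaling also moved the all-gene split of higher and lower calls elsewhere. It was 33 and 13 at 10 min (28 and 20 under median-of-ratios scaling, 35 and 25 under quantile normalization) and 1241 and 1490 for 6 h against 1 h (1523 and 1169, 1321 and 1481). It was 1664 and 258 for 24 h against 6 h (403 and 368, 369 and 276), 3963 and 1799 for 72 h against 24 h (3159 and 2693, 2776 and 3429), and 6712 and 2229 for 72 h against 6 h (4271 and 4045, 3798 and 4659). Without read counts, values of P4ha3 and Loxl4 under 1 FPKM carry an unknown counting error.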
